A study of Mus musculus with 14 samples.

Results

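The genes described here are 38 genes of the G2 phase and of mitosis, taken by gene symbol from a fixed list of names. The rule used no values, but the list was chosen with earlier results of these data known. All 38 were among the 43472 genes listed in both deposited tables, and all 38 passed the filter on low values, which required a mean normalised count of at least 10. Primary fibroblasts from the tail tips of C57BL/6 mice were grown to a monolayer, scratched to make an in vitro wound, and either left in growth medium (Untreated) or given autologous micrograft (AMG-treated), the soluble, filtered and cell-depleted extract of mechanically disrupted mouse skin diluted in that medium. Every library, the controls included, therefore came from wounded cells in serum-containing medium. Of the 14 sequenced libraries, 8 form a time course of replicate 1 (1, 5, 12 and 24 h in both groups) and 6 come from cells harvested 5 h after treatment (replicates 2, 3 and 4). The labels give no age or sex, and they do not say whether the replicates came from separate animals, so the p-values measure the spread between these cultures only.

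A dividing cell copies its DNA in S phase, prepares for division in G2 and separates its chromosomes in mitosis, and most of the genes below are transcribed in a wave that peaks in G2 and mitosis. The cyclin-dependent kinase Cdk1, bound to cyclin A or cyclin B, starts mitosis, the kinetochore and the spindle move the chromosomes, the spindle checkpoint holds the cell until every chromosome is attached, and the anaphase-promoting complex then destroys cyclin B so that the cell can divide. Transcripts of this wave are widely used as a readout of how many cells in a culture are cycling, and fibroblasts around a scratch can both migrate and divide. In RNA from a whole culture, fewer cells in G2 or mitosis and less of these transcripts per cell cannot be told apart. The paper that used these data also measured DNA synthesis and DNA content in micrograft-treated proliferating fibroblasts, at the middle times of the course. It reported no change in the cell cycle phases of the treated fibroblasts and an unchanged proliferation rate. It does not say that the sequenced cultures were the ones assayed, and how the transcript levels relate to that assay was not tested.

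The libraries held between 12545537 and 34696529 reads assigned to genes, and 16687 to 18718 genes had at least 1 read. All 12 markers of fibroblasts were present, with a summed level between 16820 and 55500 RPM (reads of the listed genes relative to all gene-assigned reads of a library, on the usual per-million scale). Of 15 keratinocyte markers, Krt5, Krt14, Krt1 and Dsg3 had at most 3 reads in any library. The other keratinocyte markers had more than 3 reads in at least 1 library, and the list summed to 12.8 to 52.5 RPM. The share of reads from 84 ribosomal protein genes was 6.34% in the Untreated 5 h library of replicate 1 and 4.62% in the AMG-treated 1 h library of replicate 1, against 2.02% to 3.09% in the other 12 libraries. In replicate 1 the ratio of AMG-treated to Untreated cells also followed transcript length over all genes, with a Spearman correlation across genes of -0.52 for the 1 h pair and 0.49 for the 5 h pair, against 0.18 for 12 h and -0.24 for 24 h. The ratios of replicate 1 at 1 h and 5 h that follow rest on these 2 libraries.

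To ask whether micrograft treatment changed the mitotic programme early after wounding, the 3 AMG-treated and 3 Untreated libraries of replicates 2, 3 and 4 at 5 h were compared first. The mitotic genes were lower in treated cells in most members and in every pair of libraries. The median log2 fold change of the 38 genes was -0.42 (a change of -25.2%), against -0.02 over the 13096 genes tested, and 33 of the 38 values lay below 0, against 51.6% of all genes. Within the pairs the median log2 ratio was -0.50 in replicate 2, -0.31 in replicate 3 and -0.52 in replicate 4 (SD 0.11, n = 3). The AMG-treated library lay below its Untreated partner in 33, 36 and 33 members respectively (background 51.7%, 50.6% and 51.8%), and 32 members were lower in all 3 pairs (background 34.5%).

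The level of the whole group differed more between replicates than between treatments. The summed reads of the 38 genes were 1214, 1918 and 920.5 RPM in Untreated cells of replicates 2, 3 and 4, and 865.6, 1509 and 625.8 RPM in the AMG-treated cells of the same numbers. Replicate 3 was thus the highest of its group under both conditions, and its treated library lay above the Untreated libraries of replicates 2 and 4. Libraries with the same number deviated together over all genes, with correlations of 0.651, 0.765 and 0.697, so the numbers were taken as pairs.

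The pairing changed the calls. In limma without a replicate block, 0 of the 38 genes were called lower and 0 higher at an adjusted p under 0.05 (background 0.267% lower and 0.97% higher), with 3 lower (Ect2, Anln and Cdc25c) and 0 higher at an unadjusted p under 0.05 (background 11.1% and 11.9%). DESeq2 called 1 member lower, Ect2, and 0 higher (background 4.43% and 6.52%), and edgeR without the block called 0 in either direction (background 0.214% and 0.817%), with 3 lower and 0 higher at an unadjusted p under 0.05 (background 9.65% and 12.6%). With the replicate number as a block, limma called 23 members lower (60.5%) and 0 higher, against 19.3% and 17.9% of all genes, and edgeR called 20 lower against 18.6%, all of them among the 23. The 3 called members that were over 2-fold lower were Anln, Ect2 and Hmmr (background 4.28%). In the gene accounts that follow, "fell" is used only for a gene with an adjusted p under 0.05 in limma with the replicate block, and the p-values are from that test.

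**Figure D1:**
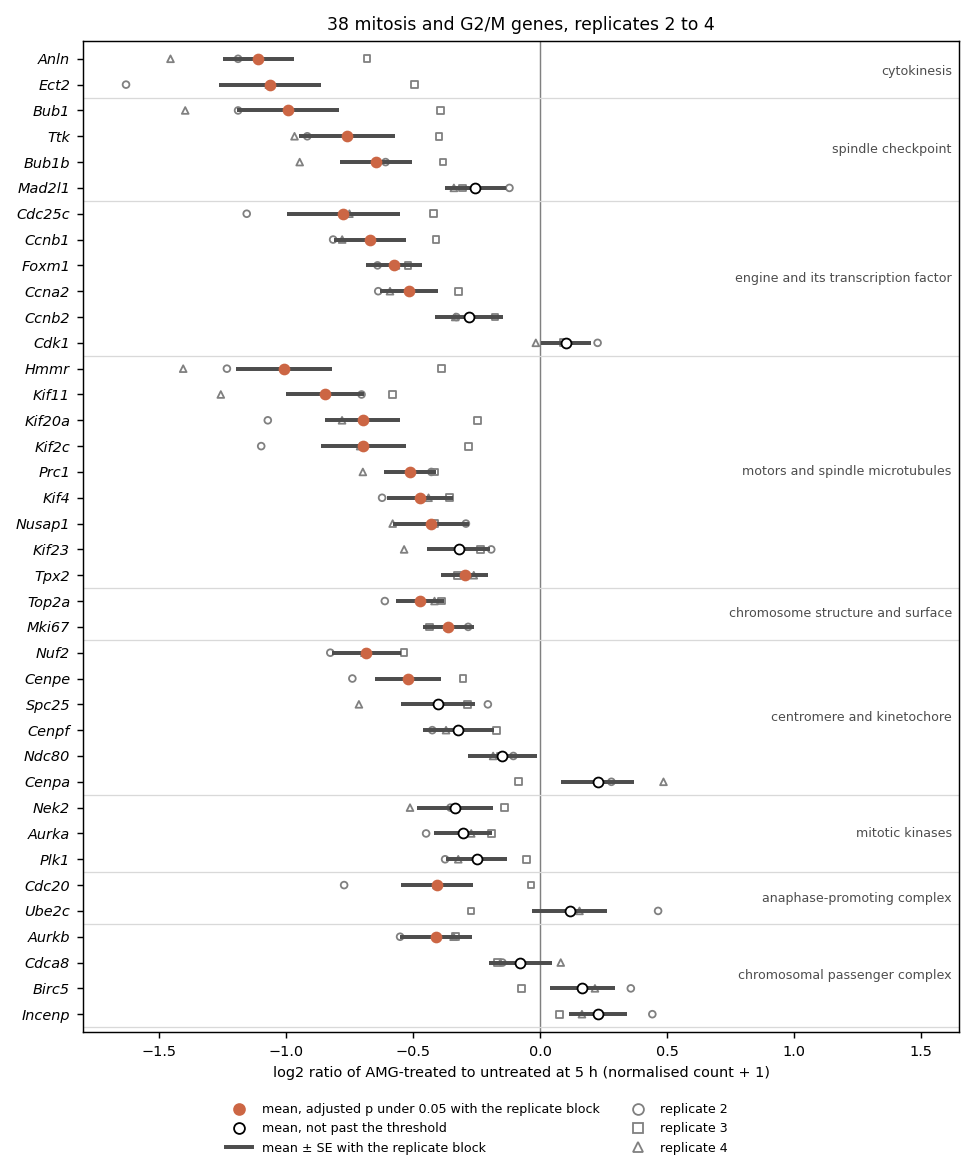
Log2 ratio of AMG-treated to Untreated cells at 5 h for the 38 genes, ordered by role, with 1 open grey symbol for each pair of libraries (replicates 2, 3 and 4), a circle for the mean and a bar for ± 1 SE with the replicate block. Filled circles mark the 23 genes with an adjusted p under 0.05 with the block, all of them below 0, and the 5 means above 0 belong to Cdk1, Ube2c, Birc5, Cenpa and Incenp.

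The largest decreases were those of Anln and Ect2, the 2 members listed under cytokinesis, with Hmmr (-1.01) and Bub1 (-0.99) close to them. Kif20a, Prc1 and Kif23, central spindle genes listed with the motors and spindle factors, had smaller log2 fold changes of -0.70, -0.51 and -0.32. Anln encodes anillin, a scaffold of the contractile ring that pinches the cell apart. Its normalised count was 1617, 2550 and 1563 in Untreated cells of replicates 2, 3 and 4 and 709, 1589 and 569 in AMG-treated cells. Each treated value lay below its partner, but the treated library of replicate 3 fell between the Untreated libraries of replicates 2 and 4, so the groups overlapped. Anln fell by 1.11 on the log2 scale (SE 0.14, adjusted p = 0.000628 by limma with the block), to 0.464 times the Untreated level. Ect2 encodes the exchange factor that activates RhoA at the division plane. It measured 478.5, 420.5 and 326 in Untreated and 154, 298 and 155 in AMG-treated cells, and it fell by 1.06 (SE 0.20, adjusted p = 0.00423 by limma with the block). For Ect2 the 3 treated libraries all lay below the 3 Untreated libraries, which was so for only 1 other member, Cdc25c (background 13.6%). No member had all 3 treated libraries above the Untreated ones (background 15.1%).

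**Figure D2:**
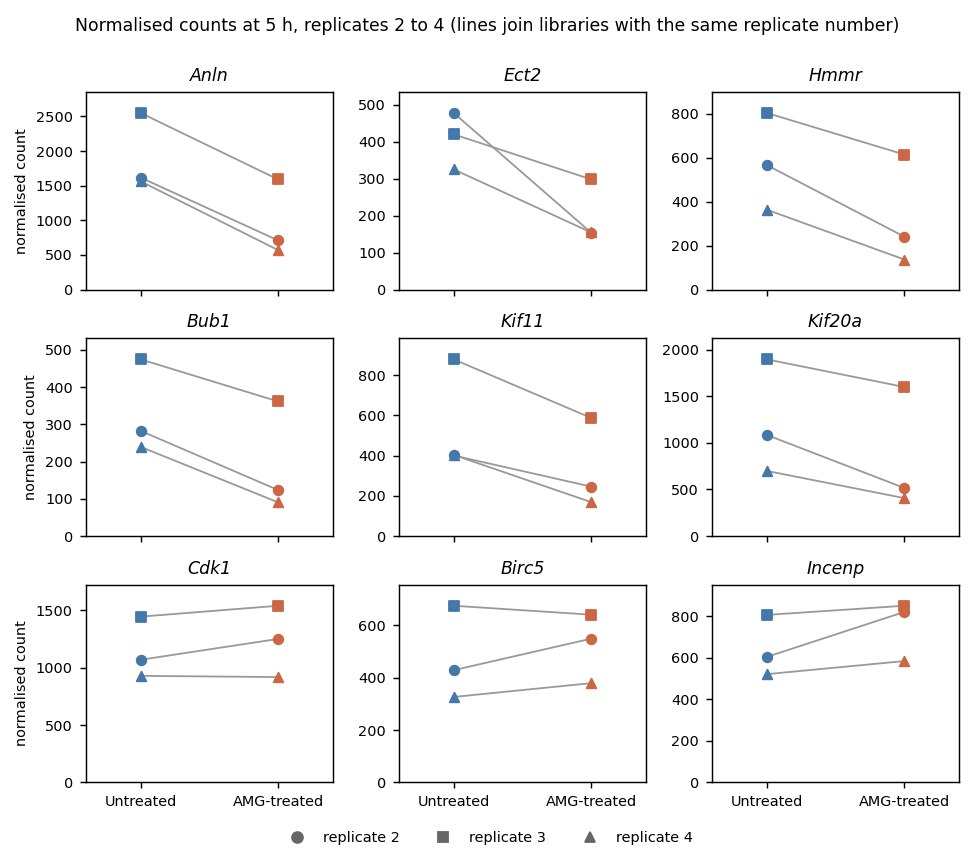
Normalised counts of 9 genes in the 6 libraries of replicates 2, 3 and 4 at 5 h, with a linear axis from 0 in each panel, symbols for the replicate number and lines joining libraries with the same number. In Anln, Ect2, Hmmr, Bub1, Kif11 and Kif20a all 3 lines go down and the log2 ratio is nearest to 0 in replicate 3, whereas in Cdk1 and Birc5 2 of the 3 lines go up and in Incenp all 3 do.

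Motor proteins and spindle microtubule factors formed the biggest group, in which 8 of 9 members fell. Hmmr, a receptor for hyaluronan that also binds spindle microtubules, measured 566.5, 803 and 363.5 in Untreated and 240.5, 614 and 137 in AMG-treated cells, and fell by 1.01 (SE 0.19, adjusted p = 0.00397). Kif11, the kinesin that pushes the spindle poles apart, measured 400.4, 879 and 403.5 against 246, 587 and 168, and fell by 0.85 (SE 0.15, adjusted p = 0.00348). For both, the treated library of replicate 3 was above 2 of the 3 Untreated libraries while remaining below its own partner. Kif20a, a kinesin of the central spindle and cleavage furrow, measured 1085, 1896 and 699 against 515, 1599 and 407, and fell by 0.70 (adjusted p = 0.00667). Kif2c, which removes tubulin from microtubule ends at the centromere, measured 464, 535 and 299.7 against 216, 439 and 183, and fell by 0.70 (adjusted p = 0.0110). In these 2 kinesins the pair of replicate 3 again differed least. Prc1, which bundles the antiparallel microtubules of the central spindle, fell by 0.51 (adjusted p = 0.00530), the chromokinesin Kif4 by 0.47 (adjusted p = 0.0187), the spindle factor Nusap1 by 0.43 (adjusted p = 0.0467, but 0.0513 in edgeR with the block) and Tpx2, which activates Aurora A on the spindle, by 0.30 (adjusted p = 0.0321). Kif23, the motor of the centralspindlin complex, had a log2 fold change of -0.32 (adjusted p = 0.0683) and did not pass.

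Of the 4 genes of the spindle checkpoint, 3 fell. The checkpoint kinase gene Bub1 measured 283, 475 and 239.6 in Untreated and 123, 361.5 and 90.4 in AMG-treated cells, and fell by 0.99 (SE 0.20, adjusted p = 0.00559). The treated library of replicate 3 was above the Untreated libraries of replicates 2 and 4, and without the block its adjusted p was 0.303. Ttk, the kinase that recruits checkpoint proteins to unattached kinetochores, measured 147, 281 and 142 against 77.6, 213 and 72.3 and fell by 0.76 (adjusted p = 0.0130). Bub1b, whose product BubR1 is part of the inhibitor of the anaphase-promoting complex, measured 365, 745 and 382 against 239, 571 and 198 and fell by 0.65 (adjusted p = 0.00801). Mad2l1, the partner of BubR1 in that inhibitor, had a log2 fold change of -0.26 (adjusted p = 0.122), although its treated library was the lower one in 3 of 3 pairs.

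In the group that starts mitosis, 4 of 6 members fell. Cdc25c, the phosphatase that activates Cdk1, was the least abundant member, at 129, 125 and 99.5 in Untreated and 57.3, 93.5 and 58.7 in AMG-treated cells. Its groups did not overlap, and it fell by 0.78 (SE 0.22, adjusted p = 0.0231). Ccnb1, cyclin B1, measured 408, 487 and 305 against 232, 366.5 and 177 and fell by 0.67 (SE 0.14, adjusted p = 0.00674). Foxm1, the transcription factor that drives much of the G2 wave, measured 508, 1104 and 479 against 326, 769.8 and 323 and fell by 0.58 (SE 0.11, adjusted p = 0.00461). Each treated library lay below its partner by a like amount, with log2 ratios between -0.64 and -0.52. Ccna2, cyclin A2, fell by 0.52 (adjusted p = 0.00816), while Ccnb2, cyclin B2, had a log2 fold change of -0.28 that did not pass (adjusted p = 0.126). The kinase gene itself behaved differently. Cdk1 measured 1069, 1445 and 929 in Untreated and 1251, 1540 and 918 in AMG-treated cells, which gives 0.10 on the log2 scale (SE 0.10, adjusted p = 0.451) with 1 of 3 pairs lower.

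Mki67, which coats mitotic chromosomes and is the usual histological marker of cycling cells, measured 843, 1699 and 633 in Untreated and 692, 1255 and 491 in AMG-treated cells. It fell by 0.36 (SE 0.10, adjusted p = 0.0202), a smaller change than those of the cytokinesis genes. Top2a, the topoisomerase that untangles sister chromosomes, measured 1565, 2938 and 1454 against 1024, 2243 and 1090.0 and fell by 0.47 (SE 0.09, adjusted p = 0.00527). In both genes the 3 pairs were close to each other.

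At the centromere and kinetochore, 2 of 6 members fell. Nuf2, a subunit of the Ndc80 complex that holds microtubules, measured 371, 579 and 269 against 209, 399 and 166 and fell by 0.68 (adjusted p = 0.00503). The other subunits of the same complex differed less, with log2 fold changes of -0.40 for Spc25 (adjusted p = 0.0562) and -0.15 for Ndc80 (adjusted p = 0.418). Cenpe, a kinetochore motor, fell by 0.52 (adjusted p = 0.0126), and Cenpf, a large kinetochore protein, had a log2 fold change of -0.32 (adjusted p = 0.0966). Cenpa, the histone H3 variant that marks the centromere, measured 349, 586 and 193 against 424, 553 and 269.9, which gives 0.23 on the log2 scale (SE 0.14, adjusted p = 0.242). Its direction was not shared by the pairs, since replicate 3 was lower and replicates 2 and 4 were higher.

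The chromosomal passenger complex, which corrects wrong attachments and then guides cytokinesis, held 1 gene that fell and 3 that did not pass. Its kinase gene Aurkb measured 235, 398 and 248 in Untreated and 160.3, 316 and 195 in AMG-treated cells and fell by 0.41 (SE 0.14, adjusted p = 0.0480), a call that was lost in edgeR with the block (adjusted p = 0.0540). The 3 other subunits had log2 fold changes of -0.08 for Cdca8 (borealin, adjusted p = 0.651), 0.17 for Birc5 (survivin, adjusted p = 0.331) and 0.23 for Incenp (adjusted p = 0.145). Incenp measured 605, 808 and 522 against 822, 852 and 585 and was the only member that was higher in 3 of 3 pairs (background 31.9%). The range of the complex, from -0.41 to 0.23, thus lay on both sides of 0.

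None of the other mitotic kinases passed. Plk1, which acts from mitotic entry to cytokinesis, had a log2 fold change of -0.25 (adjusted p = 0.125), Aurka, the kinase of the spindle poles, -0.30 (adjusted p = 0.0650), and Nek2, which separates the centrosomes, -0.34 (adjusted p = 0.103). All 3 were lower in 3 of 3 pairs. For the anaphase-promoting complex, its activator gene Cdc20 measured 911, 944 and 585 in Untreated and 533, 921 and 440.5 in AMG-treated cells and fell by 0.41 (adjusted p = 0.0487), and it lost the call in edgeR with the block (adjusted p = 0.0517). Its ubiquitin-conjugating enzyme Ube2c measured 581, 724 and 374 against 801.5, 599 and 417, with a log2 fold change of 0.12 (adjusted p = 0.565) and 1 of 3 pairs lower. Per kilobase of the longest annotated transcript, the most abundant members in Untreated cells were Cdc20 at 453.5 and Prc1 at 452.6 normalised counts, and the least abundant was Cenpf at 28.5. This ranking depends on the transcript chosen for each gene, and which transcripts the cells made was not measured.

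Transcript length bore on some of these calls. Over all genes the log2 fold change at 5 h in replicates 2, 3 and 4 had a Spearman correlation with transcript length of -0.40 (n = 12480 genes), and over the 38 members it was -0.27. After a correction for length, limma with the block called 21 members lower (background 15.6%), of which 18 were among the 23. Mki67, Cenpe, Kif4, Tpx2 and Nusap1, whose longest transcripts exceed the median of the members (3285 bases), lost the call, for instance Mki67 with an adjusted p = 0.820, and the shorter Ccnb2, Aurka and Spc25 gained it. The 16 members called lower in limma, in edgeR and after the length correction, each with the block, were Top2a, Ccnb1, Ccna2, Cdc25c, Bub1, Bub1b, Ttk, Kif11, Kif20a, Kif2c, Prc1, Foxm1, Nuf2, Anln, Ect2 and Hmmr.

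The count also depended on single replicates. With the block and without replicate 2, 3 or 4, the number of members called lower was 5, 28 or 14 (background 5.31%, 27.0% and 10.1%) and the number called higher was 0, 3 or 0 (background 5.53%, 25.0% and 10.3%). Without the AMG-treated library of replicate 3 and with no block it was 7 lower and 0 higher (background 8.05% and 8.75%), the 7 being Ccnb1, Cdc25c, Bub1, Kif2c, Anln, Ect2 and Hmmr. When replicate 1 at 5 h was added as another pair, 0 members were called lower and 0 higher by limma with the block (background 1.33% and 2.6%), and 14 were lower at an unadjusted p under 0.05 (background 10.4%). With the length correction as well, an analysis added after these data were seen, 9 were called lower and 0 higher (background 6.13% and 8.47%), of which 8 were among the 23. Marker lists of cell types also moved at 5 h. The summed level of the 12 fibroblast markers was 50220, 37970 and 55500 RPM in Untreated cells of replicates 2, 3 and 4 and 32010, 30260 and 40480 in AMG-treated cells, and the summed level of 11 skeletal muscle markers ran from 174.7 to 437.2 RPM in Untreated and from 103.6 to 322.7 RPM in AMG-treated cells, although Myh2, Myh4, Ckm, Myod1 and Myog among them had at most 3 reads in any library. The 15 keratinocyte markers summed to 30.5, 13.2 and 24.4 RPM in Untreated and 47.1, 12.8 and 41.3 RPM in AMG-treated cells, higher in 2 of 3 pairs. Leukocyte markers summed to 15.3, 9.6 and 78.2 RPM in Untreated and 12.5, 12.7 and 65.7 RPM in AMG-treated cells. Endothelial markers summed to 4.1, 17.5 and 3.9 RPM in Untreated and 10.6, 15.6 and 7.4 RPM in AMG-treated cells. Neither of these lists moved in the same direction in all pairs. In limma with the block, 8 of the 12 fibroblast, 1 of the 11 skeletal muscle and 3 of the 15 keratinocyte markers were called in either direction. The same fit called 0 of the 15 leukocyte and 2 of the 10 endothelial markers. Over all genes the shares were 19.3% lower and 17.9% higher. The part of these lists in the mitotic changes was not tested.

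Promoter sequences of members that fell and of 1 that did not are shown beside the values. Promoters of G2 and mitosis genes are known for a short element near the start, the cell cycle genes homology region, bound by the MuvB complexes that carry repressors in resting cells and B-Myb and Foxm1 in cycling cells, and for CCAAT boxes bound by NF-Y. The stretches below, from RefSeq on build GRCm38.p6, are the 120 bases before the start of genes that fell much (Ect2, Kif11), that fell moderately (Top2a, Prc1, Cdc20) and that did not fall (Cdk1). Capitals mark the letters TTTGAA or TTCGAA, on either strand, and CCAAT, on either strand.
Ect2: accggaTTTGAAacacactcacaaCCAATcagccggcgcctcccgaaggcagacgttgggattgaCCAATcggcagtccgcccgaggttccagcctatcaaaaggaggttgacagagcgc
Kif11: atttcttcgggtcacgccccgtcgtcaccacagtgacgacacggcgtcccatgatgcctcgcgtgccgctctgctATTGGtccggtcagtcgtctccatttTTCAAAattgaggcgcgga
Top2a: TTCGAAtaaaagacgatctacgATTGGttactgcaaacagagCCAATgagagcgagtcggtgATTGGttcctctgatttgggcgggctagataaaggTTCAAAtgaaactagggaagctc
Prc1: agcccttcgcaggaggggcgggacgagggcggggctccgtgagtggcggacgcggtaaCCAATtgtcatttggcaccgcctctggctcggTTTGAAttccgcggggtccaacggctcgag
Cdc20: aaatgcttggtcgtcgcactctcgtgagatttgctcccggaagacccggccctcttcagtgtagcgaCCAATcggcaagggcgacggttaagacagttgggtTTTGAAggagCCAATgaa
Cdk1: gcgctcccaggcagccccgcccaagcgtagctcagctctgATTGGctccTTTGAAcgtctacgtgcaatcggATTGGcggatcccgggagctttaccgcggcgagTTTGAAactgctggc
The stretches lie at chr3:27153879-27153998 on the minus strand for Ect2, chr19:37376262-37376381 on the plus strand for Kif11, chr11:99024190-99024309 on the minus strand for Top2a, chr7:80294356-80294475 on the plus strand for Prc1, chr4:118437344-118437463 on the minus strand for Cdc20 and chr10:69352913-69353032 on the minus strand for Cdk1. The counts that follow are from a longer RefSeq window, which begins further upstream than the printed stretches and runs past the start. A gene with several windows was counted if any of them held the letters. The letters TTTGAA or TTCGAA occurred in the RefSeq window of 24 of the 31 members that have one (77.4%), against 21.7% of 27025 genes, and CCAAT occurred in 24 of 31 (77.4%) against 41.1%. Both were present in 21 members (67.7%) against 8.61% of all genes. The letters did not separate the genes that fell from the rest, since TTTGAA or TTCGAA was found in 13 of 17 members that fell (76.5%) and in 11 of 14 others (78.6%), Cdk1 included. Such matches describe letters and not bound sites.

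The time course of replicate 1 asks when after wounding the mitotic genes differ. It has 1 library for each group and time, so no difference in it has a replicate check and none was tested. Its largest and most uniform difference was at 12 h, when 37 of the 38 genes were lower in AMG-treated cells (background 51.0%), at a median log2 ratio of -0.81, or 0.571 times the Untreated level, against -0.01 over 13498 genes. At that time 26 members were over 1.5-fold lower (background 13.6%) and 0 were over 1.5-fold higher (background 11.8%). The median was -0.02 in the 1 h pair, with 19 members lower (background 53.0%), -0.34 in the 5 h pair, with 25 lower (background 50.2%), and -0.31 in the 24 h pair, with 32 lower (background 48.4%). For 22 members the ratio at 12 h was the lowest of the 4 times (background 10.4%). Marker lists of other kinds also differed between these libraries. At 12 h the summed levels in Untreated and AMG-treated cells were 27910 and 20060 RPM for the 12 fibroblast markers, 69.1 and 30.6 RPM for 15 leukocyte markers, 55.5 and 27.0 RPM for 11 skeletal muscle markers, 42.3 and 27.5 RPM for 15 keratinocyte markers and 7.82 and 4.65 RPM for 10 endothelial markers. At 24 h they were 30420 and 16820 RPM for fibroblast, 68.8 and 22.9 RPM for leukocyte, 45.03 and 18.0 RPM for skeletal muscle, 52.5 and 23.8 RPM for keratinocyte and 7.02 and 4.03 RPM for endothelial markers. Of the leukocyte markers Cd3e, Cd4 and Cd8a, and of the endothelial ones Tie1 and Emcn, had at most 3 reads in any library. All 5 lists were thus lower in the treated library at both times, as the mitotic genes were, and their part in the mitotic ratios was not tested.

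**Figure D3:**
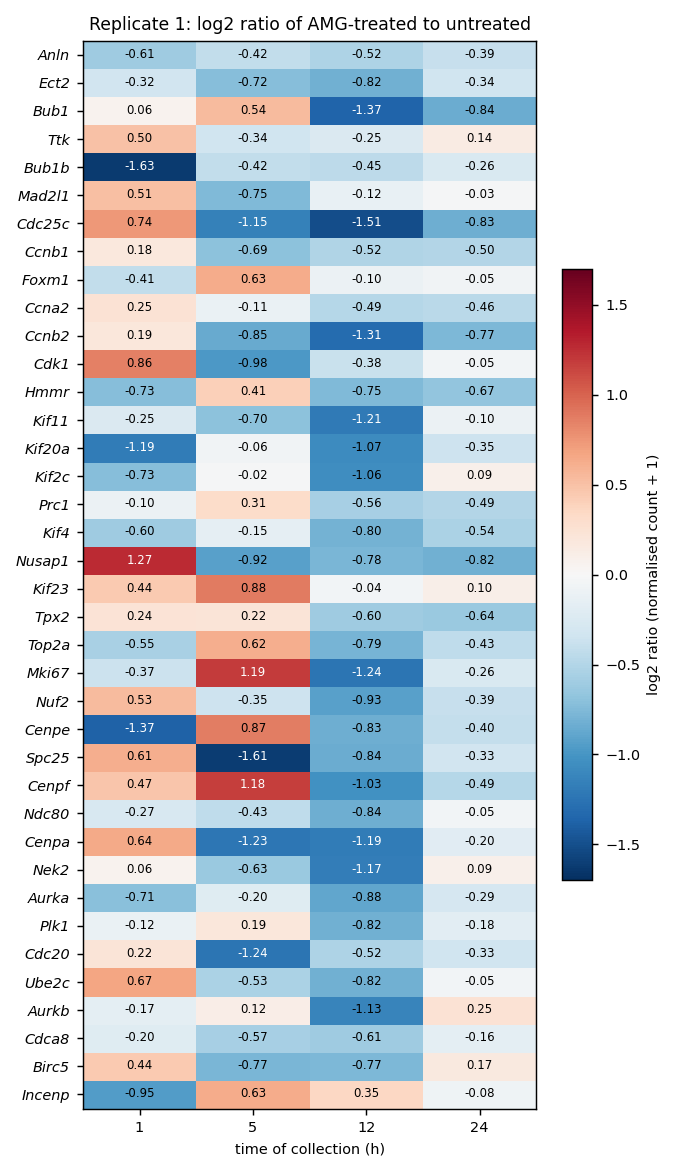
Log2 ratio of AMG-treated to Untreated cells of replicate 1 for the 38 genes (rows, in the order of roles used for the plot of 5 h ratios) at 1, 5, 12 and 24 h (columns), with 1 library for each group and time. Blue is lower and red is higher in treated cells, and the column at 12 h is blue in 37 of 38 rows, and the columns at 1 h and 5 h hold both colours.

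At 12 h the members that differed most were not those of the 5 h comparison alone. Cdc25c measured 42.4 in Untreated and 14.3 in AMG-treated cells, or 0.352 times, and Bub1 82.7 against 31.5, or 0.388 times. Cyclin B2, which did not pass at 5 h, measured 162.5 against 64.8 (0.403 times), and Mki67 measured 140.5 against 59.1 (0.425 times). Kif11 was at 0.433 times, Cenpa at 0.439, Nek2 at 0.443, Aurkb at 0.458 and Kif20a at 0.475 times the Untreated level. Cdk1, at 568.6 against 435.5 (0.766 times), and Birc5, at 127 against 74.3 (0.587 times), were also lower at this time, whereas their mean ratios at 5 h in replicates 2, 3 and 4 were above 1. Foxm1 differed little, at 191 against 178, and Incenp was the 1 member higher in treated cells, at 332.6 against 261. By role, the median log2 ratio at 12 h was -1.02 for the 2 chromosome genes, -0.88 for both the mitotic kinases and the kinetochore genes, -0.78 for the motors, -0.67 for cytokinesis and -0.35 for the spindle checkpoint.

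By 24 h the ratios had come closer to 1. The share of members over 1.5-fold lower in AMG-treated cells, 6 of 38, was near that of all genes (background 15.3%), and their values are given as a description. Bub1 measured 123 in Untreated and 68.4 in AMG-treated cells (0.558 times) and Cdc25c 69.7 against 38.7 (0.562 times). Nusap1 was at 0.568, Ccnb2 at 0.588, Hmmr at 0.626 and Tpx2 at 0.644 times the Untreated level. Cdk1, at 630.2 against 610.3, and Foxm1, at 284 against 274, were nearly level.

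The early ratios of replicate 1 scattered widely. At 1 h they ran from -1.63 for Bub1b to 1.27 for Nusap1, with 9 members over 1.5-fold lower (background 25.1%) and 6 over 1.5-fold higher (background 22.6%). At 5 h they ran from -1.61 for Spc25 to 1.19 for Mki67, with 13 lower (background 25.4%) and 7 higher (background 25.6%). Those shares lie near or below the background of all genes except for the 13 lower at 5 h. At 5 h the ratio followed transcript length among the members as well, with a Spearman correlation across the 38 genes of 0.48, so that the long transcripts Mki67 (93.4 in Untreated, 214 in AMG-treated cells) and Cenpf (29.5 against 68.1) were higher and the short ones Spc25 (339 against 111) and Cenpa (244 against 103.7) were lower. This correlation was opposite in sign to the one in replicates 2, 3 and 4. The part of length in these 2 times was not tested beyond the length correction, under which the medians were 0.04 at 1 h and -0.21 at 5 h. Over all 4 pairs at 5 h, 20 members were lower in treated cells each time (background 16.0%).

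In Untreated wounded cells the mitotic genes were higher later in the day. Relative to 1 h, the 38 genes had a median log2 ratio of 0.31 after 5 h, 0.35 after 12 h and 0.84 after 24 h. At 24 h all 38 were above their 1 h level (background 48.8%) and 28 were over 1.5-fold above it (background 16.2%). Ccnb2 went from 44.0 through 128 and 162.5 to 232 over the 4 times, which was 5.19 times the start. Nusap1 went from 32.5 to 93.4, 105.4 and 161, or 4.83 times. Nek2, from 29.9 to 97.3, and Cenpf, from 29.9 to 92.7, reached 3.18 and 3.03 times their first level. For 29 members the highest Untreated value was the one at 24 h, and for 8 members, among them Cdk1 and Cdc20, it was in the 5 h library, the one with the high share of ribosomal protein reads. The share of all genes was not computed for these counts, so they are given as a description.

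**Figure D4:**
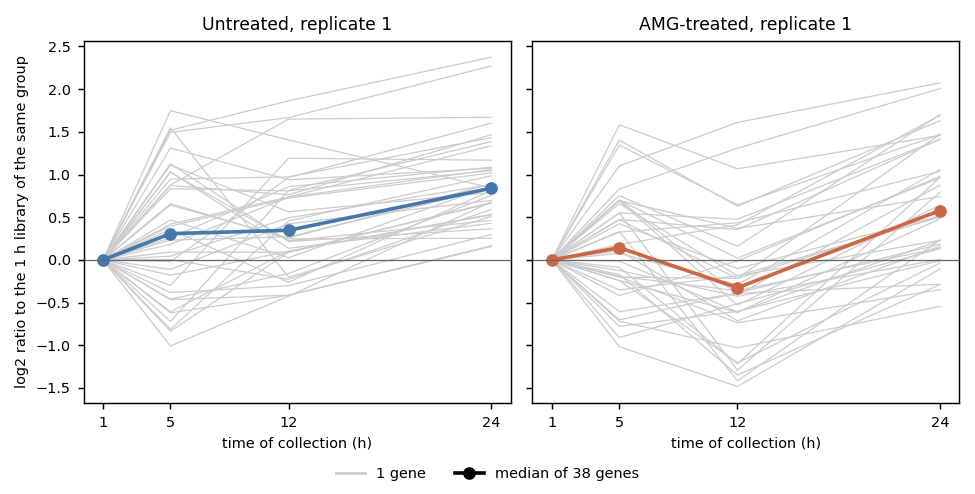
Log2 ratio of each collection time to the 1 h library of the same group in replicate 1, for Untreated (left) and AMG-treated (right) cells, with 1 grey line for each of the 38 genes and a coloured line for their median. The median rises to 0.84 at 24 h in Untreated cells, and in AMG-treated cells it is -0.33 at 12 h and 0.58 at 24 h.

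AMG-treated cells followed another course. Relative to their own 1 h library the median was 0.14 for 5 h, -0.33 for 12 h and 0.58 for 24 h, with 26 members below the start at 12 h (background 49.2%) and 31 above it at 24 h (background 50.7%). Between 12 and 24 h all 38 were higher at the later time in treated cells, at a median of 0.86 (background 49.3%), and 36 in Untreated cells, at a median of 0.52 (background 48.9%). The largest of these late increases include Kif11, which went from 39.1 to 181 in treated and from 91.5 to 194 in Untreated cells, and Mki67, which went from 59.1 to 254 in treated and from 140.5 to 303 in Untreated cells. The summed level of the 38 genes was 247, 299, 256 and 438 RPM in AMG-treated cells and 282, 340, 402 and 555 in Untreated cells at 1, 5, 12 and 24 h, so the treated library was the lower one at each time. The 1 h libraries to which these courses are set include the treated one with many ribosomal protein reads, and each library stands alone.

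The rest of the mitotic programme, in a second list of 75 genes of which 73 were tested, moved like the members at 5 h. In limma with the block 34 fell (46.6%) and 4 rose (5.48%), against 19.3% and 17.9% of all genes, at a median log2 fold change of -0.46. Without the block limma called 0 lower and 1 higher (background 0.267% and 0.97%), with 9 and 2 at an unadjusted p under 0.05 (12.3% and 2.74%, background 11.1% and 11.9%). DESeq2 called 2 lower and 1 higher (background 4.43% and 6.52%) and edgeR 0 lower and 1 higher (background 0.214% and 0.817%). Kif18a, a kinesin that damps chromosome movements, measured 177, 189 and 133 in Untreated and 42.0, 94.3 and 29.4 in AMG-treated cells (log2 fold change -1.73, adjusted p = 0.00148 with the block by limma). Depdc1a, a gene of mitotic progression, had a log2 fold change of -1.37 (adjusted p = 0.00446 with the block by limma). Zwint, a kinetochore scaffold, rose with and without the block, from 2785, 2605 and 2609 to 4587, 4089 and 4382 (log2 fold change 0.71, adjusted p = 0.0414 without the block and 0.000489 with it by limma). Reep4, which clears membrane from mitotic chromosomes, rose by 0.42 (adjusted p = 0.0229 with the block by limma).

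Genes of S phase, the step before G2, were lower by a like amount at 5 h and parted from the mitotic genes later. Of 58 tested, 32 fell with the block (55.2%) and 0 rose, against 19.3% and 17.9% of all genes, at a median of -0.47. Without the block limma called 0 in either direction (background 0.267% lower and 0.97% higher), with 21 lower at an unadjusted p under 0.05 (36.2%, background 11.1%). DESeq2 called 9 lower (15.5%, background 4.43%) and edgeR 0 in either direction (background 0.214% lower and 0.817% higher). Dtl, which directs the destruction of the replication licensing factor Cdt1, fell by 1.80 (adjusted p = 0.000816 with the block by limma), and Pole, the leading-strand DNA polymerase, by 1.44 (adjusted p = 0.000873 with the block by limma). In replicate 1 the median log2 ratio of the S phase genes was 0.01, -0.46, -0.10 and 0.24 in time order, and at 24 h 45 of the 58 were higher in treated cells (background 51.6%), whereas the 38 mitotic genes stood at -0.81 and -0.31 at the last 2 times. These are values of single libraries, and the difference between the lists was not tested.

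Among 23 regulators of the programme (E2F, DREAM and MuvB subunits, p53 and cell cycle inhibitors), 6 fell (26.1%) and 3 of the 23 rose with the block at 5 h. These shares were not far from the background (19.3% and 17.9% of all genes), and the median was -0.09. Without the block limma called 0 in either direction (background 0.267% lower and 0.97% higher), with 5 lower and 3 higher at an unadjusted p under 0.05 (background 11.1% and 11.9%). DESeq2 called 2 lower and 3 higher (background 4.43% and 6.52%) and edgeR 0 in either direction (background 0.214% lower and 0.817% higher). Tfdp2, a partner of E2F factors, measured 492, 536 and 504 in Untreated and 239, 359.9 and 204 in AMG-treated cells and fell by 0.97 (adjusted p = 0.00206 with the block by limma). Rbl1, the pocket protein p107, fell by 0.94 (adjusted p = 0.00665 with the block by limma). Cdkn1a, which encodes the Cdk inhibitor p21, measured 9711, 9165 and 9594 against 21460, 13100 and 19120 and rose by 0.88 (adjusted p = 0.00107 with the block by limma). Trp53, the gene of p53, rose by 0.65 (adjusted p = 0.000961 with the block by limma). In replicate 1 the log2 ratio of Cdkn1a was 0.75, 0.61, 0.11 and 0.12 at 1, 5, 12 and 24 h, the higher values being the earlier ones.

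Some counts are uncertain because the strand setting of the counting is not given. By the GENCODE annotation of build GRCm38, Ccna2 overlaps Exosc9, Cdc20 overlaps Elovl1, Kif20a overlaps Cdc23, Kif4 overlaps Pdzd11, Nusap1 overlaps Oip5, Prc1 overlaps Rccd1, Ube2c overlaps Tnnc2, Cdc25c overlaps Gm3550 and Cdca8 overlaps 9930104L06Rik on the other strand, and Foxm1 overlaps Tex52 on its own strand. Of the genes with the largest differences at 5 h, Anln, Ect2, Hmmr, Bub1 and Kif11 overlap no other protein-coding gene.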

How the data were processed

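Per the labels and the study's methods, stranded poly(A) libraries were sequenced as single-end reads, aligned to mm10 with TopHat2 2.0.13, and uniquely aligned reads were counted per gene with HTSeq 0.5.3p3. The annotation release and the strand setting are not given in the sources used here. What the authors deposited is signal, that is, read counts scaled by DESeq size factors. Replicate 1 (8 libraries) and replicates 2, 3 and 4 (6 libraries) were scaled apart in their own tables, so tests were made within a table. Every value was a whole multiple of what 1 read is worth (100% whole within a tolerance of 0.1), which gave back reads for the count tests. Groups and replicate numbers came from the sample titles, and 0 columns were left unmapped.

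The main test was limma 3.58.1 with a trend (R 4.3.3) on log2(normalised count + 1), without a block, over 13096 genes with a mean of at least 10, with Benjamini-Hochberg adjustment over all of them. Fold changes are on that scale. The replicate number is a block in a second fit. Same-numbered libraries correlated in their deviations from the group means at 0.651, 0.765 and 0.697, and differently numbered ones at -0.588 to 0.12, but what same-numbered cultures have in common is not labelled. edgeR 4.0.16 (quasi-likelihood) and DESeq2 1.42.0 were run on the recovered reads. Lengths are longest GENCODE transcripts, known for 95.3% of tested genes, and the length correction removed a lowess trend (span 0.3) from each library. limma with and without the block, and edgeR and DESeq2 without it, were tested on simulated data. The other fits were not. The simulated libraries held no effect shared by same-numbered libraries and no trend with transcript length. The simulation therefore cannot say how the block performs on libraries with such effects.

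The members and all lists were chosen with earlier results of these data known. All 38 members are named, and from each other list of cell cycle genes at most the 2 lowest and 2 highest called genes. The depth gives 3 reads a normalised count of 1.62 to 5.22, below every member value.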

Additional observations from a re-analysis of the deposited data

Results flagged for a closer look

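Over the 4 pairs at 5 h, the log2 ratio of replicate 1 stood apart from the other 3 in 4 of the 41 groups of 4 values searched. Chance marks about 1 group in 20 where groups are independent. These groups come from the same libraries and are not, so their number cannot be set against that rate. The gap to the nearest pair was 0.906 of the whole range for Mki67 (1.19 in replicate 1 against -0.44 to -0.28), 0.842 for Cenpf (1.18 against -0.42 to -0.17), 0.883 for Tpx2 (0.22 against -0.33 to -0.26) and 0.905 for Foxm1 (0.63 against -0.64 to -0.52). In each of these genes the pair of replicate 1 was higher in treated cells and the other 3 were lower. The Untreated library of that pair had the highest share of ribosomal protein reads (6.34%), and the part of this in the values was not tested.

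From 1 to 12 h the median of the 38 genes moved in opposite directions in the 2 groups of replicate 1, with a log2 ratio of 0.35 in Untreated and -0.33 in AMG-treated cells. Each value rests on 2 libraries, and the difference was not tested.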

How the results depend on the processing

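The number of members called lower at 5 h, 0 without a block in limma, was 23 with the replicate block, 20 in edgeR with the block, 1 in DESeq2, 21 with the length correction and the block and 9 with 4 replicates, the length correction and the block, the last chosen after seeing the data. It stayed 0 with other pseudocounts, filters on low values, no trend, upper quartile scaling, edgeR, the length correction without the block, and 4 replicates with the block. In the same order of settings the counts were 32, 32, 9, 34 and 16 for S phase genes lower, 34, 34, 2, 29 and 14 for other mitotic genes lower and 9, 9, 5, 12 and 9 for regulators changed, and with 4 replicates and the block but no length correction they were 3, 1 and 1. In that order the background was 19.3%, 18.6%, 4.43%, 15.6% and 6.13% lower and 17.9%, 18.4%, 6.52%, 17.8% and 8.47% higher. With 4 replicates and the block alone it was 1.33% lower and 2.6% higher. The 23 regulators were counted in either direction, so both shares apply to them. Leaving out 1 library without the block gave 0 to 7 members, 0 to 15 S phase genes, 0 to 14 other mitotic genes and 0 to 9 regulators, each highest without the AMG-treated library of replicate 3 (background there 8.05% lower and 8.75% higher). The median of the members ran from -0.72 to -0.18. Members with separate groups numbered 2 with every library (background 13.6%), 4 with upper quartile scaling and 2 to 21 with 1 library left out. The 21 came without the AMG-treated library of replicate 3. Groups with fewer libraries separate more readily in any gene, and the share of all genes was not computed for that setting. With the block and without replicate 2, 3 or 4 there were 5, 28 or 14 members lower (3 higher without replicate 3), 13, 36 or 17 S phase genes, 10, 39 or 20 other mitotic genes and 6, 13 or 7 regulators. The background was 5.31%, 27.0% or 10.1% lower and 5.53%, 25.0% or 10.3% higher, and for the regulators both shares apply. Where leaving out libraries leaves a group with 1 library, it is taken to vary like the others.

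Under the length correction the medians of replicate 1 were 0.041 at 1 h (reversed) and -0.21 at 5 h. Upper quartile scaling, which shifts the median of all genes by 0.11 to 0.13 in the 12 h and 24 h courses, gave 0.46 and 0.97 for Untreated cells at 12 and 24 h and 0.70 for AMG-treated cells at 24 h. With 4 replicates and the block, without and with the length correction, these genes turned in sign: Mki67 (0.026 and 0.083), Cdk1 (-0.17 and -0.13), Cenpa (-0.14 and -0.15), Cenpf (0.053 and 0.10), Birc5 (-0.068 and -0.051) and Ube2c (-0.047 and -0.044). With the length correction alone or with the block, Mad2l1 was 0.036 and Cenpf 0.011. Leaving out 1 library turned the sign of 11 genes, of which only Mki67 is among the 23 called lower in limma with the block. Their values ran for Mki67 -0.73 to 0.044, Ccnb2 -0.70 to 0.083, Cdk1 -0.074 to 0.30, Plk1 -0.65 to 0.052, Cenpa -0.18 to 0.62, Cenpf -0.70 to 0.0017, Kif23 -0.72 to 0.031, Birc5 -0.074 to 0.45, Cdca8 -0.25 to 0.022, Ube2c -0.15 to 0.36 (-0.059 with the block and without replicate 2) and Ndc80 -0.40 to 0.11. The causes were not tested. Genes with few reads, such as Cdc25c in replicate 1, have the widest counting error.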
